A study of Mus musculus with 12 samples.

Results

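The plasminogen activation system was followed through 5 genes chosen by name: the activators Plau and Plat, the activator receptor Plaur, and the inhibitors Serpine2 and Serpinb2. All 5 were found among the 21001 genes of the tables, and all 5 passed the expression filter of at least 1 FPKM (a read level corrected for transcript length and library depth) in 3 or more libraries, which 12314 genes did in all. RNA was sequenced from 12 libraries of C57BL/6 mouse cells marked with green fluorescent protein (GFP), 3 in each of 4 groups, which the labels call bone marrow stem cells with the genotype "wide type" (as spelled there) and the series title calls mesenchymal stem cells. NC is the primary culture of these GFP cells. HOMING is GFP cells recovered from the marrow of mice that had the GFP cells placed under the skin, with no tumour cells named in the label. BM is GFP cells recovered from the marrow of mice given the GFP cells together with red-fluorescent LLC cells, the Lewis lung carcinoma line of mouse. TUMOR is GFP cells recovered from the site where that mixture was inoculated. Every group carries GFP, and the labels name neither the promoter that drives it, nor the gate of the sort, nor the age of the mice, nor whether the 3 libraries of a group came from separate animals or cultures. The p-values therefore measure the spread between these libraries, which may be technical.

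Plasminogen is an inactive precursor that circulates in blood. The proteases uPA (from Plau) and tPA (from Plat) cut it to plasmin, which dissolves fibrin, degrades matrix proteins and activates other precursors. The receptor uPAR (from Plaur) holds uPA at the cell surface, and serpins such as protease nexin-1 (from Serpine2) and PAI-2 (from Serpinb2) trap the activators. Stromal cells, macrophages and granulocytes are all known to make parts of this system.

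The libraries held 43232145 to 46166519 expected counts each. Replicates of a group correlated at Pearson's r of 0.992 to 0.999 across genes, which are not independent replicates, and their counts differed by more than sampling noise in all 12 pairs (chi-square per degree of freedom of 3.19 to 53.1, the highest between NC replicates 1 and 3). Of 14 mesenchymal stromal markers, 9 averaged at least 1 FPKM in NC and 10 in each of HOMING, BM and TUMOR. Thy1, Nt5e, Lum and Lepr averaged under 1 FPKM in every group, and Eng averaged 0.943 FPKM in NC. Of all 21001 genes, 12314 reached 1 FPKM in 3 or more libraries. Markers of blood cells set HOMING apart. The summed level of 8 erythroid genes was 2107 to 3471 FPKM in HOMING and at most 3.65 in any library of the other groups. For 6 megakaryocyte genes it was 30.03 to 41.86 FPKM in HOMING and at most 7.39 in any library of the other groups. The summed level of 5 pan-leukocyte genes was 141 to 223 FPKM in HOMING, 8.55 to 9.36 in BM, 0.17 to 0.74 in TUMOR and 0.16 to 0.26 in NC. Of 16 neutrophil genes, Elane, Mpo, Ctsg and Retnlg had no counts in NC, where Lcn2 gave 99.4% of the list's sum, and Mpo, Ctsg, Retnlg and Fcnb had none in TUMOR, where Lcn2 gave 94.8%. Prtn3 of that list was at 0.61 to 1.25 FPKM in TUMOR and 0.02 to 0.07 in NC. The summed level of 7 epithelial genes was 69.6 to 115 FPKM in TUMOR, of which Krt8 gave 74.8% and Krt19 nearly all of the rest, and 1.96 to 6.99 FPKM across the other groups. The other epithelial genes, Epcam, Krt18, Cdh1, Cldn4 and Cldn7, were at 0.12 FPKM or less in every TUMOR library. TUMOR replicate 1 stood apart in Krt8, at 93.78 FPKM against 48.13 and 51.94. The part of blood or epithelial cells in the members' levels was not tested.

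Plau (Entrez 18792) was most abundant in BM and least abundant in NC. Its level was 15.85, 15.14 and 17.18 FPKM in the BM libraries, 11.94, 11.18 and 11.28 FPKM in HOMING, 8.88, 9.07 and 9.37 FPKM in TUMOR, and 4.89, 4.88 and 10.45 FPKM in NC. NC replicate 3 thus stood above all TUMOR libraries while the other two NC libraries lay below every library of the other groups. Here and below "rose" and "fell" stand for an edgeR p below 0.05 after adjustment for the 12314 genes together with a difference of 2-fold or more, and changes are log2 values ± SE. Plau rose in BM over NC, from 6.74 ± 3.21 to 16.1 ± 1.04 FPKM (SD, n = 3), by log2 1.16 ± 0.23 (edgeR adjusted p = 0.000586). Without NC replicate 1 or replicate 2 the change was 0.97, just under the 2-fold minimum, and without NC replicate 3 it was 1.65. In HOMING over NC the change was log2 0.65 ± 0.23 (edgeR adjusted p = 0.0215), under 2-fold, and it passed at 1.13 without NC replicate 3. In the order BM, HOMING, TUMOR, NC, no neighbours differed by the call: BM exceeded HOMING by log2 0.52 ± 0.22 (edgeR adjusted p = 0.0608), TUMOR lay 0.34 ± 0.22 under HOMING, and TUMOR exceeded NC by 0.30 ± 0.23. The SE draws on the spread within all 4 groups, and fitted on the 6 BM and HOMING libraries alone Plau gave log2 0.52 with an edgeR adjusted p of 4.57e-05, still under 2-fold, and over all alternatives the adjusted p ran from 4.57e-05 to 0.146.

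Plat (Entrez 18791), whose product is best known for dissolving clots inside vessels, was lowest in HOMING. Its level was 9.02, 8.91 and 8.88 FPKM in HOMING, against 16.87, 16.74 and 17.05 FPKM in BM, 14.59, 14.88 and 14.31 FPKM in TUMOR, and 15.22, 12.16 and 17.74 FPKM in NC. The HOMING libraries lay below all 9 others, whereas NC overlapped both BM and TUMOR. BM exceeded HOMING by log2 0.95 ± 0.10 (95% confidence interval 0.72 to 1.18, edgeR adjusted p = 7.13e-06), and HOMING lay below NC at log2 -0.86 ± 0.10 (edgeR adjusted p = 8.97e-06). Neither reached 2-fold. Between BM and NC the difference was log2 0.08, with an interval of -0.14 to 0.31. Of the 2 Plat transcripts in the tables, the RefSeq transcript of 2570 bases took 93.2 to 100% of the gene's counts in every library, and the other was an unannotated model of 2692 bases.

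The ratio of Plau to Plat, both per length, was 1.25 to 1.32 in the HOMING libraries, 0.904 to 1.01 in BM, 0.609 to 0.655 in TUMOR and 0.321 to 0.589 in NC. These ranges do not overlap between any of the 4 groups. In HOMING Plau was thus the more abundant activator transcript, and in NC and TUMOR Plat was.

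Plaur (Entrez 18793) was highest in HOMING and was more abundant per length than Plau in every library. It stood at 116.97, 115.01 and 126.67 FPKM in HOMING, 78.77, 83.47 and 113.36 FPKM in NC, 61.33, 64.30 and 64.84 FPKM in BM, and 50.94, 53.66 and 53.81 FPKM in TUMOR. No library of one group entered the range of another, although NC replicate 3 came close to HOMING. Plaur fell in TUMOR against HOMING, from 119.6 ± 6.24 to 52.8 ± 1.62 FPKM, by 1.19 ± 0.11 on the log2 scale (edgeR adjusted p = 2.02e-06). The other differences were under 2-fold: log2 -0.88 ± 0.11 in BM against HOMING, -0.93 ± 0.11 in TUMOR against NC (-1.03 without NC replicate 1), -0.62 ± 0.11 in BM against NC, -0.31 ± 0.11 in TUMOR against BM and 0.27 ± 0.11 in HOMING against NC, with edgeR adjusted p of 8.38e-06 to 0.0481. Plaur is also made by neutrophils and monocytes, and the HOMING libraries held the highest levels of their markers. The 16 neutrophil markers summed to 2683 to 3986 FPKM there, against 413 to 437 in BM, 348 to 445 in NC and 46.1 to 48.6 in TUMOR. Outside HOMING these sums were mostly Lcn2, at 86.8% in BM, 99.4% in NC and 94.8% in TUMOR, and do not rank those groups by the other markers. Of the 15 neutrophil genes tested, 11 were called higher and 0 lower in BM over NC, where 7.93% of all tested genes were called higher and 3.57% lower. These counts are partly set by the filter, since 6 of the 16 genes averaged at least 1 FPKM in BM and 2 in NC, against 16 in HOMING. S100a8 averaged 834 FPKM in HOMING, 21.3 in BM, 0.577 in NC and 0.680 in TUMOR. HOMING replicate 3 had the highest Plaur level and also the highest Itgam, at 56.22 FPKM against 32.34 and 31.05, and the highest erythroid Hba-a1, at 1697.93 against 1057.64 and 994.07. Which cells supplied Plaur was not tested. Plaur was at 50.9 to 113 FPKM in the TUMOR and NC libraries, in which the pan-leukocyte genes summed to under 1 FPKM. In such bulk libraries, fewer cells of a type and less RNA per cell cannot be told apart.

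Promoter sequence from RefSeq was at hand for Plaur, Serpine2 and Serpinb2 (build GRCm38.p6, while the authors mapped to mm8). The 250 bases before a start site are shown because Plaur and Serpinb2 were both highest in HOMING, while Serpine2 peaked in BM. Capitals mark matches on either strand to TGANTCA (the core bound by AP-1 factors), GGGCGG (the GC box bound by Sp1) and TATAAA (the TATA box), chosen after the sequences were seen.
Plaur, chr7:24462233-24462482, plus strand: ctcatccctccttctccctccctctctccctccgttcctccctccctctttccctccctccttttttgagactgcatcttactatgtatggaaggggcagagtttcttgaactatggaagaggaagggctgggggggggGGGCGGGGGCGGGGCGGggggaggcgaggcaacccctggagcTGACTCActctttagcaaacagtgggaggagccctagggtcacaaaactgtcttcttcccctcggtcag
Serpine2, chr1:79858666-79858915, minus strand: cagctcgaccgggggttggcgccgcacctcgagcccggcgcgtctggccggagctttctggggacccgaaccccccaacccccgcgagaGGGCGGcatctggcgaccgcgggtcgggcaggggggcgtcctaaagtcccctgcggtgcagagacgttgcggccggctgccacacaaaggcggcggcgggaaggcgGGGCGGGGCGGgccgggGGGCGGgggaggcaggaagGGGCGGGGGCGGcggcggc
Serpinb2, chr1:107511173-107511422, plus strand: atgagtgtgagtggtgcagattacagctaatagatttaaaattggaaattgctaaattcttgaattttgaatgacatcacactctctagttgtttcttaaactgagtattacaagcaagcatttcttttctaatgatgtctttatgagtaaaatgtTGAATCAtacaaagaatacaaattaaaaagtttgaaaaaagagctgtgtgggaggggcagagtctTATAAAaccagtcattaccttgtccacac

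The Plaur and Serpinb2 windows each held 1 match to TGANTCA, starting 69 and 94 bases before the start site. Of all 32851 RefSeq windows of this length, 6.75% held such a match. The Serpine2 window held 6 matches to GGGCGG and the Plaur window 3, against 32.7% of all windows with at least 1, and their G and C content was 78.8% and 59.6%. The Serpinb2 window, with 32.4% G and C, held 1 match to TATAAA, starting 29 bases before the start, a motif found in 12.4% of windows. A second Serpinb2 start site in the table has a window that overlaps the printed one and holds the same 2 matches. These matches describe the letters only.

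Serpine2 (Entrez 20720), whose product blocks thrombin, uPA and tPA at the cell surface, was the most abundant member per length in BM. Its level was 162.04, 159.58 and 157.57 FPKM in BM, 69.25, 68.01 and 72.57 FPKM in HOMING, 64.50, 55.06 and 65.22 FPKM in NC, and 27.97, 37.73 and 35.77 FPKM in TUMOR. BM lay above and TUMOR below all other libraries, and HOMING and NC were close. Serpine2 rose in BM over HOMING, from 69.9 ± 2.36 to 159.7 ± 2.24 FPKM, by log2 1.22 ± 0.09 (edgeR adjusted p = 2.55e-07). It also rose in BM over NC, by log2 1.29 ± 0.09 (edgeR adjusted p = 1.82e-07). Between HOMING and NC the difference was log2 0.07, with an interval of -0.13 to 0.27.

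At the inoculation site Serpine2 was the lowest of the 4 groups. It fell in TUMOR against BM by 2.28 ± 0.10 on the log2 scale, from 159.7 ± 2.24 to 33.8 ± 5.16 FPKM (edgeR adjusted p = 1.38e-09), and against HOMING by 1.06 ± 0.09 (edgeR adjusted p = 9.78e-07). Without TUMOR replicate 1, the lowest library and the highest in Krt8, the change against HOMING was -0.95 and missed the 2-fold minimum. Against NC it was -0.99 ± 0.09 (edgeR adjusted p = 7.95e-07), at the edge of 2-fold: it reached -1.07 without NC replicate 2 or TUMOR replicate 2 and -1.03 without TUMOR replicate 3.

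Serpinb2 (Entrez 18788), which encodes an inhibitor of uPA that is largely kept inside the cell, varied most. It was at 67.90, 71.03 and 96.37 FPKM in HOMING, 39.27, 39.25 and 39.08 FPKM in BM, 3.09, 3.32 and 12.87 FPKM in NC, and 2.99, 6.24 and 5.23 FPKM in TUMOR. Both marrow groups lay above all NC and TUMOR libraries, and NC replicate 3 was 12.87 FPKM while the other two NC libraries were near 3. Serpinb2 rose in HOMING over NC, from 6.43 ± 5.58 to 78.4 ± 15.6 FPKM, by log2 3.49 ± 0.44 (edgeR adjusted p = 1.29e-05), and in BM over NC, to 39.2 ± 0.104 FPKM, by log2 2.52 ± 0.43 (edgeR adjusted p = 0.000223). Without NC replicate 3 these changes were 4.51 and 3.54. In TUMOR it fell against HOMING by 4.04 ± 0.45 (edgeR adjusted p = 9.54e-06) and against BM by 3.07 ± 0.44 on the log2 scale (edgeR adjusted p = 5.21e-05).

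The neighbouring groups in the Serpinb2 order, HOMING and BM at the top and NC and TUMOR at the bottom, were not called apart. BM lay below HOMING at log2 -0.97 ± 0.39 (interval -1.81 to -0.13, edgeR adjusted p = 0.0478), just under 2-fold. The SE of this value takes in the spread of NC, and the fit on the BM and HOMING libraries alone gave -0.97 with an edgeR adjusted p of 0.000127, the lowest of the alternatives, whose highest was 0.141. TUMOR against NC gave -0.55 ± 0.46 (interval -1.54 to 0.45), which turned to 0.48 without NC replicate 3. Serpinb2 is also known from activated macrophages. The summed monocyte and macrophage markers were 275 to 439 FPKM in HOMING, 63.4 to 64.5 in BM, 25.8 to 26.6 in TUMOR and 13.7 to 19.99 in NC. Outside HOMING a single gene gave much of these sums: Cd14 gave 56.9% in BM and 58.6% in NC, and Cd68 gave 47.6% in TUMOR. The sums thus do not rank those groups by the other markers. Within HOMING, replicate 3 was the highest library for Serpinb2 and for macrophage and leukocyte genes, with Cd68 at 61.48 FPKM against 40.11 and 40.55, and Ptprc at 10.61 against 5.94 in both others. The same library was highest for the erythroid gene Hba-a1, at 1697.93 FPKM against 1057.64 and 994.07. Which cells supplied Serpinb2 was not tested.

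**Figure D1:**
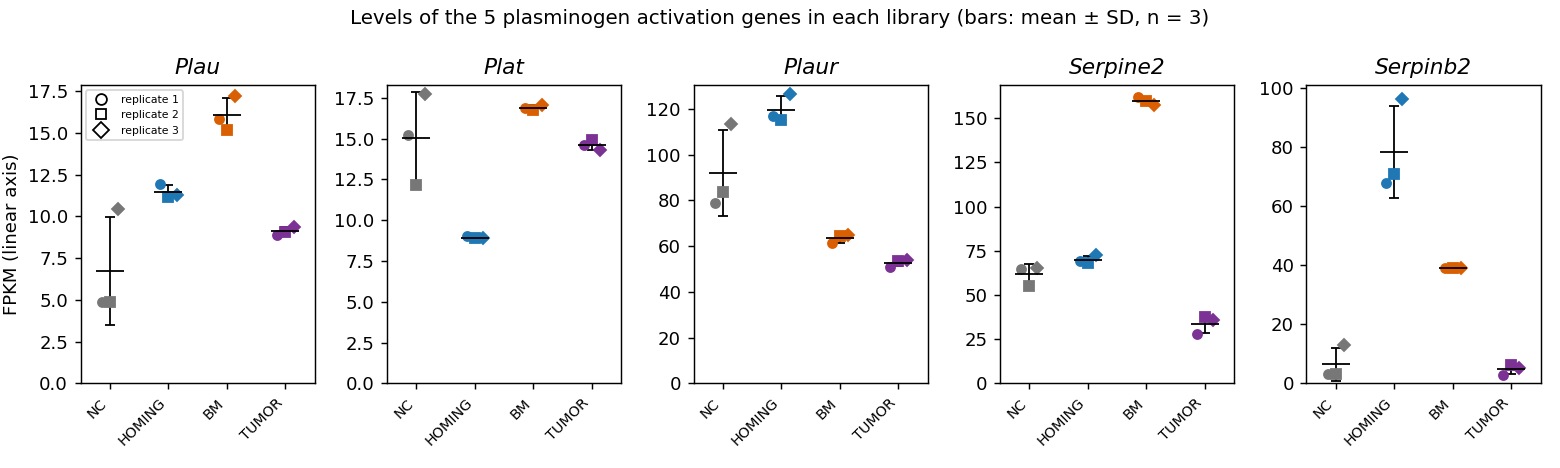
Levels of Plau, Plat, Plaur, Serpine2 and Serpinb2 in FPKM (vertical, linear axes from 0) in the 4 groups (horizontal), with a point for each library shaped by replicate and bars for the mean ± SD (n = 3). HOMING was lowest for Plat (8.88 to 9.02 FPKM) and highest for Plaur and Serpinb2, BM was highest for Serpine2 (157.57 to 162.04 FPKM), and NC replicate 3 stood above the other NC libraries for Plau, Plaur and Serpinb2.

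Serpinb2 reads were divided between 2 RefSeq transcripts of 1988 and 2007 bases. The 1988-base transcript took 75.5 to 76.5% of the gene's expected counts in HOMING, 68.3 to 72.7% in BM, 54.1 to 71.2% in NC and 32.6 to 69.0% in TUMOR. The share varied little in HOMING, where the gene was abundant, and widely in NC and TUMOR. The split between the transcripts is the counting program's estimate. Plau, Plaur and Serpine2 were each represented by 1 transcript. Per RefSeq, no other gene overlapped any of the 5, which bears on reads counted without strand.

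**Figure D2:**
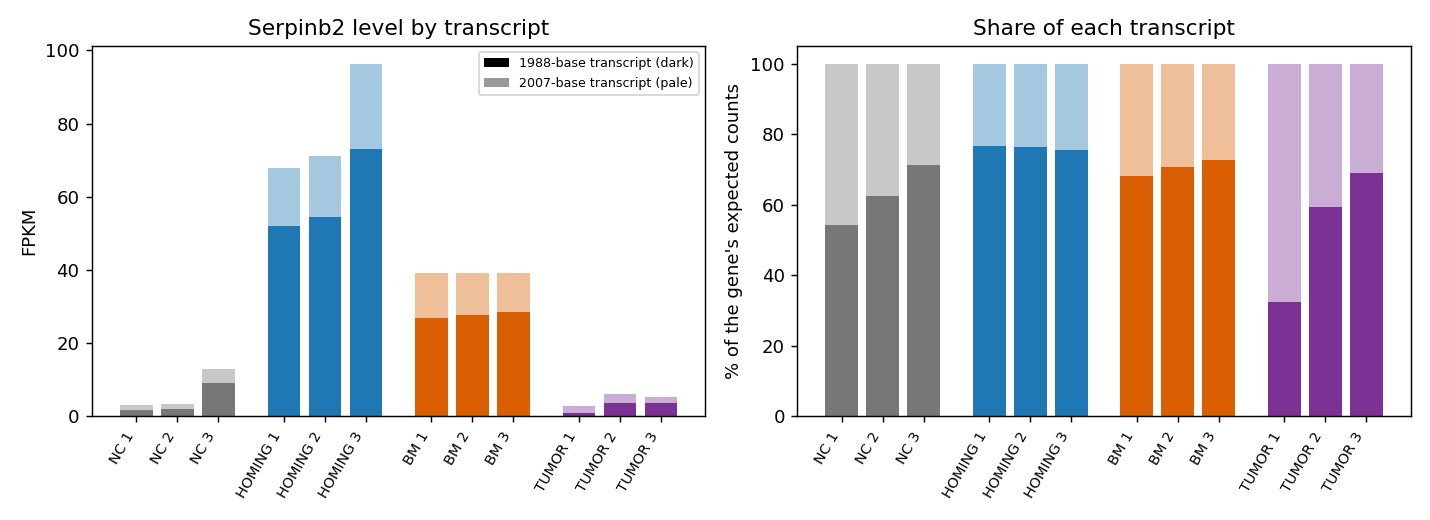
Serpinb2 in the 12 libraries, as FPKM stacked by transcript (left) and as each transcript's percent of the gene's expected counts (right), dark for the 1988-base and pale for the 2007-base transcript. The dark share was 75.5 to 76.5% in the HOMING libraries and 32.6 to 69.0% in the TUMOR libraries.

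Taking the 5 genes by comparison, the marrow cells of tumour-bearing mice differed from the culture in activator and inhibitors. In BM against NC, 3 of 5 rose (Plau, Serpine2 and Serpinb2), where 7.93% of all tested genes were called higher, 3.57% lower and 11.5% in either direction, and the libraries of 4 did not overlap, as for 69.6% of genes. In HOMING against NC only Serpinb2 of the 5 rose, where 9.64% of genes were called higher, 4.69% lower and 14.3% in either direction, and the libraries of all 5 did not overlap, as for 72.6% of genes. In TUMOR against NC 0 of 5 were called in edgeR, where 9.75% of genes were called higher, 6.65% lower and 16.4% in either direction. DESeq2 and limma also called 0, and 2 of 5, Plaur and Serpine2, had an unadjusted edgeR p under 0.05. Their adjusted edgeR p was under 0.05 as well, as for 9068 of the 12314 tested genes. These 2 were also the members whose libraries did not overlap, as for 72.8% of genes.

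In BM against HOMING, marrow with against without named tumour cells, 1 of 5 rose (Serpine2), where 3.71% of genes were called higher, 6.68% lower and 10.4% in either direction. An adjusted p under 0.05 in edgeR was reached by 4 of 5, and by 7158 of the 12314 tested genes. The libraries of all 5 were apart, as for 72.3% of genes. In TUMOR against BM both serpins fell, where 6.95% of genes were called higher, 7.28% lower and 14.2% in either direction. The adjusted p of all 5 members was under 0.05 in edgeR, as for 8576 of the 12314 tested genes, with each member lower in TUMOR. Their libraries were all apart, as for 75.9% of genes. In TUMOR against HOMING 3 of 5 fell (Plaur, Serpine2 and Serpinb2), where 4.42% of genes were called higher, 6.37% lower and 10.8% in either direction. All 5 were apart, as for 66.9% of genes, and Plat was the member higher in TUMOR, at log2 0.70 ± 0.10 (edgeR adjusted p = 0.000112), under 2-fold. These comparisons share groups and are not independent of each other.

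**Figure D3:**
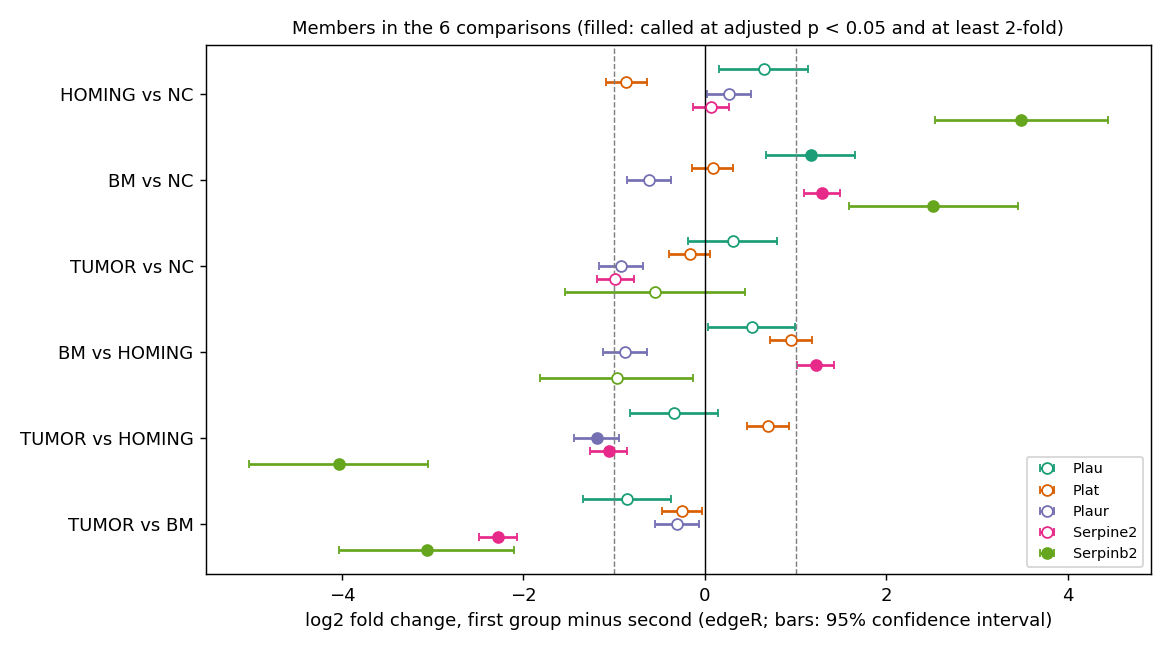
Log2 fold changes of the 5 genes (horizontal, first group minus second, edgeR) in the 6 comparisons (vertical), with 95% confidence intervals, filled where called and open where not. Serpinb2 spans -4.04 in TUMOR against HOMING to 3.49 in HOMING against NC, and the changes of Plat all stay within the dashed 2-fold lines.

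**Figure D4:**
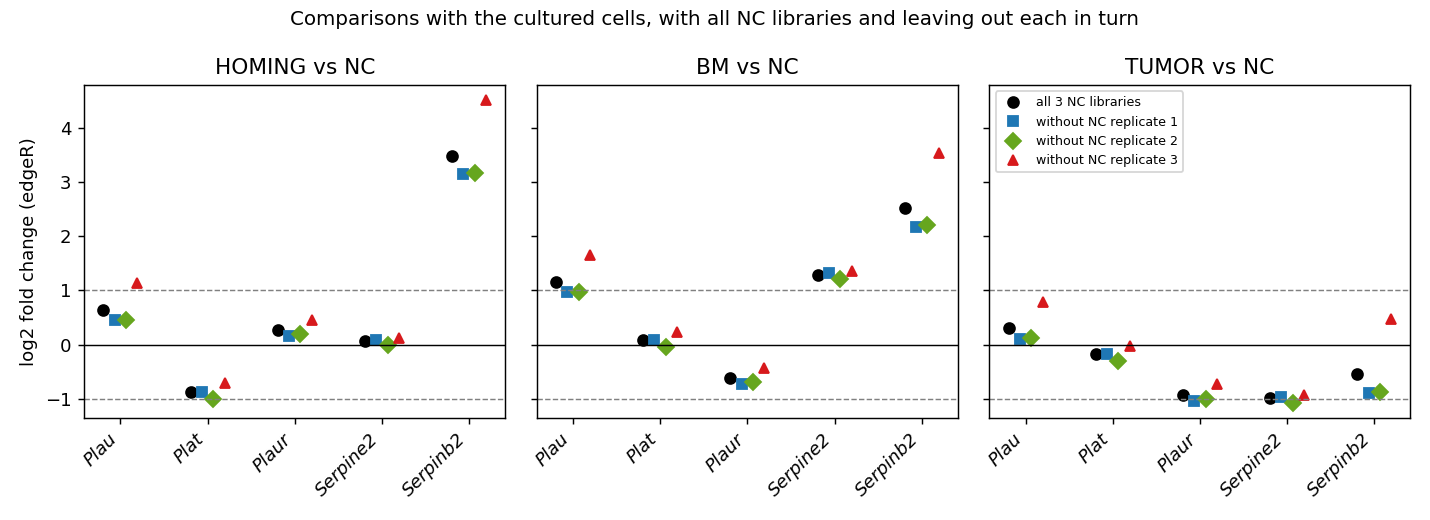
Log2 fold changes of the 5 genes (vertical, edgeR) against NC for HOMING, BM and TUMOR, with all 3 NC libraries (circles) and without each in turn. Leaving out NC replicate 3 moved Serpinb2 from 3.49 to 4.51 in HOMING and from -0.55 to 0.48 in TUMOR, and Plau from 0.65 to 1.13 in HOMING.

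Pairs of members were also set out as ratios within a library. Plau over Serpine2, both in FPKM, was 0.240 to 0.317 in TUMOR, 0.155 to 0.172 in HOMING, 0.0949 to 0.109 in BM and 0.0758 to 0.160 in NC. TUMOR was thus highest and did not overlap the others, although its Plau level was below that of BM. Plaur over Plau was 10.8 to 17.1 in NC, 9.80 to 11.2 in HOMING, 5.74 to 5.92 in TUMOR and 3.77 to 4.25 in BM. Serpinb2 over Serpine2 was 0.981 to 1.33 in HOMING and at most 0.248 in any library of the other groups. Transcript ratios say nothing of the amounts of active protein.

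Other genes of the system were read from a list of 15, of which 14 were in the tables and 5 passed the filter: Plgrkt, Anxa2, S100a10, Eno1 and Thbd. Plasminogen itself (Plg) had 1 count over the NC libraries, 1 over BM and 2 over TUMOR, with no counts in HOMING. Vtn, which encodes the adhesive protein vitronectin, had 2 counts over NC, 3 over BM and 2 over TUMOR, likewise with none in HOMING. Both transcripts were near or below detection at this depth in these libraries.

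Transcripts of the plasminogen-binding proteins Anxa2, S100a10 and Eno1 were abundant throughout, at 244 FPKM or more in every library. Plgrkt was lower, at 21.25 to 24.64 FPKM in HOMING, 18.58 to 22.76 in TUMOR, 13.70 to 14.30 in NC and 13.29 to 14.08 in BM. Anxa2 and S100a10 encode the annexin A2 tetramer that binds plasminogen and tPA, and Eno1 encodes enolase, a glycolytic enzyme that also binds plasminogen at the surface. Anxa2 rose in TUMOR over BM, from 405 ± 9.02 to 840.2 ± 29.4 FPKM (log2 1.01 ± 0.07, edgeR adjusted p = 4.84e-08), close to the minimum and short of it without BM replicate 2 (0.99) or TUMOR replicate 1 (0.97). Its partner S100a10 gave log2 0.997 ± 0.08 there, from 255 ± 12.7 to 524 ± 14.7 FPKM. Eno1 rose in TUMOR over NC by log2 1.05 ± 0.09 (edgeR adjusted p = 5.10e-07) and over HOMING by 1.06 ± 0.09, with values of 0.89 and 0.90 without TUMOR replicate 1, its highest library and that of Krt8. In BM against NC none of the 5 list genes was called by edgeR (median log2 change -0.23, against 0.02 over all tested genes), while 4 of the 5 had both an unadjusted and an adjusted p under 0.05 below 2-fold: Anxa2 (-0.90), S100a10 (-0.23), Thbd (-0.80) and Eno1 (0.32). An adjusted edgeR p under 0.05 was reached there by 8198 of the 12314 tested genes.

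Receptors that clear bound activators and partners of uPAR formed a list of 15, all of which passed the filter. Of the 15, 5 rose and 2 fell in HOMING against NC, where 9.64% of all tested genes were called higher and 4.69% lower. The count of 5 is partly set by the filter, since Sorl1 (1.95 to 3.39 FPKM in HOMING, at most 0.13 elsewhere) and Itgb3 (up to 3.12 FPKM in HOMING, at most 0.61 elsewhere) passed it through HOMING alone. Fpr1 rose by log2 8.63 ± 0.33. Fpr2 had 3 counts over the NC libraries and 5265 over HOMING, and Fpr1 and Fpr2 encode formyl peptide receptors of phagocytes, whose markers were likewise highest in HOMING. Those that fell were Vldlr (log2 -1.33 ± 0.06) and Lrp1 (-1.19 ± 0.09), endocytic receptors that take up serpin-bound activators. Lrp1 also fell in TUMOR against NC, from 125 ± 4.76 to 61.7 ± 9.28 FPKM (log2 -1.14 ± 0.09, edgeR adjusted p = 1.13e-07). Vldlr rose in BM over HOMING (log2 1.11 ± 0.06), from 8.65 to 9.30 FPKM in the HOMING libraries to 18.59 to 20.02 FPKM in BM, with 20.22 to 22.16 FPKM in NC. The Vldlr change was 0.79 when its most abundant transcript replaced the gene sum.

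Of 18 matrix proteins, growth factors and precursors that plasmin or its activators are known to process, 15 passed the filter. In BM against HOMING 2 rose and 2 fell, where 10.4% of all tested genes were called in either direction, in BM against NC 4 rose and 3 fell (11.5%), and in TUMOR against BM 1 rose and 4 fell (14.2%). In HOMING against NC 5 rose and 3 fell (14.3%), in TUMOR against NC 0 rose and 3 fell (16.4%), and in TUMOR against HOMING 0 rose and 4 fell (10.8%). Stromelysin-1 (Mmp3), a protease precursor that plasmin activates, was at 310.2 ± 9.88 FPKM in BM, 57.7 ± 7.41 in HOMING, 19.96 ± 4.65 in TUMOR and 19.1 ± 2.52 in NC. It rose in BM over NC by log2 3.94 ± 0.16 and fell in TUMOR against BM by 4.00 ± 0.16. Hgf, a growth factor precursor that uPA can cleave, had a similar order at low level, with 1.69 ± 0.0404 FPKM in BM, 0.927 ± 0.107 in HOMING, 0.480 ± 0.131 in TUMOR and 0.410 ± 0.0964 in NC. It passed the filter through BM, since elsewhere only HOMING replicate 3 reached 1 FPKM, at 1.05. Its place among the genes that rose in BM over NC and fell in TUMOR against BM is thus partly set by the filter. With limma on log2(FPKM + 1) these changes were 0.93 and -0.86, both under 2-fold. Collagenase-3 (Mmp13) fell in TUMOR against NC, BM and HOMING, from 10.2 ± 2.49, 33.5 ± 1.25 and 36.7 ± 8.85 to 1.68 ± 0.104 FPKM. The thrombin receptor gene F2r was the target that rose in TUMOR over BM, from 20.84 to 22.75 FPKM in the BM libraries to 54.68 to 57.11 FPKM in TUMOR (log2 1.32 ± 0.05, edgeR adjusted p = 7.21e-10). Fibronectin (Fn1), a matrix substrate of plasmin, fell in HOMING, BM and TUMOR against NC, by 2.01 ± 0.08, 1.35 ± 0.08 and 1.87 ± 0.08 on the log2 scale.

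**Figure D5:**
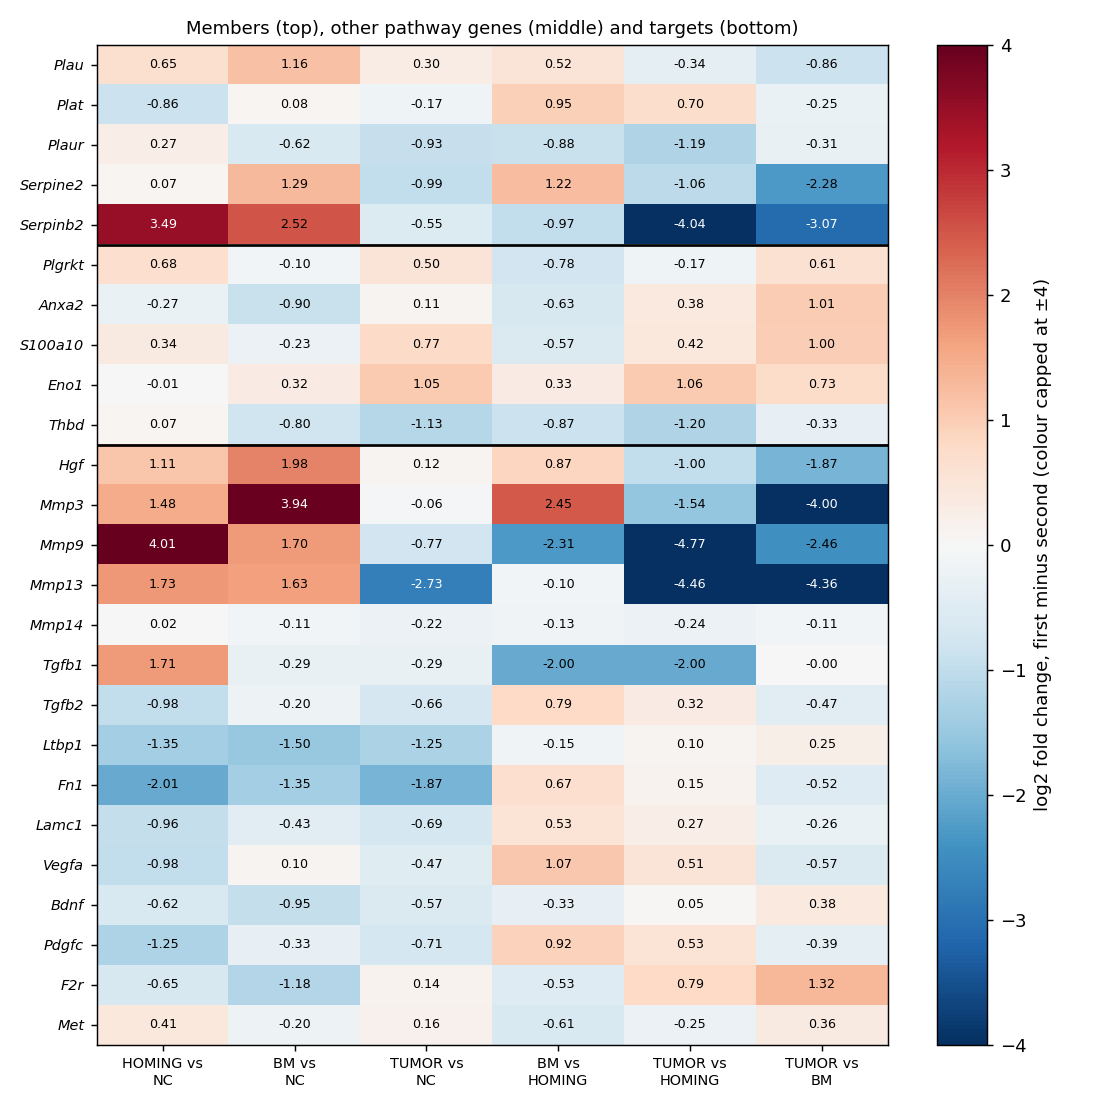
Log2 fold changes (first group minus second, edgeR; colour capped at 4 in either direction, value printed) of the 5 members (top), the 5 tested pathway genes (middle) and the 15 tested targets (bottom) in the 6 comparisons. Serpine2, Serpinb2, Hgf, Mmp3, Mmp9 and Mmp13 were all lower in TUMOR than in BM, while Anxa2 (1.01) and F2r (1.32) were higher there.

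Genes with the most similar pattern to each member were sought among 9071 genes whose mean reached 5 FPKM in some group, by Pearson's r of log2(FPKM + 1) over the 12 libraries. These r values are descriptions, since the libraries fall into 4 groups and share depth and scaling. For Plau they were Ecm1 (r = 0.985), which encodes an extracellular matrix glycoprotein, St6galnac4 (r = 0.977) and Dcun1d5 (r = 0.975). Ecm1 was at 20.9 ± 10.8 FPKM in NC, 36.4 ± 0.317 in HOMING, 59.9 ± 3.49 in BM and 31.6 ± 0.330 in TUMOR. For Serpine2 they were Ppfia1 (r = 0.994), Pdpn (r = 0.991) and Rad18 (r = 0.991). Podoplanin (Pdpn), a surface glycoprotein of stromal cells, was at 280 ± 3.00 FPKM in BM, 126 ± 7.13 in HOMING and 43.3 ± 6.98 in TUMOR, with NC between TUMOR and HOMING.

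For Serpinb2 the closest were Adora2b (r = 0.992), an adenosine receptor gene, Evi2a (r = 0.986) and Arhgef3 (r = 0.984). Adora2b averaged 11.2 ± 1.55 FPKM in HOMING, 7.86 in BM, 3.02 ± 0.161 in TUMOR and 2.81 ± 1.03 in NC. For Plaur they were Rab5if (r = 0.976), Crlf2 (r = 0.962), a cytokine receptor gene, and Psen2 (r = 0.953). For Plat the closest genes matched less well: Dlc1 (r = 0.938), Kntc1 (r = 0.931) and the chloride transporter gene Clcn3 (r = 0.924). No gene appeared in the list of more than 1 member.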

How the data were processed

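RNA from 12 GFP-sorted libraries was measured by sequencing. Per the submitters' processing notes, reads were mapped with Bowtie 0.12.2 to mm8; no source used here names the counting program. Per the file headers, the deposited tables list expected counts (estimated reads per transcript, not normalized) and FPKM, which the authors scaled to length and depth. Both were summed per Entrez gene, with unlisted transcripts set to 0. Of 19679 Entrez numbers, 19629 matched a RefSeq symbol. The 1322 genes without one took 2.08 to 2.65% of the counts and stayed in the fit. Rounded counts of the 12314 genes reaching 1 FPKM in 3 or more libraries, scaled by TMM (factors 0.929 to 1.04), went into 1 quasi-likelihood model of the 4 groups (edgeR 4.0.16, R 4.3.3), two-sided, with Benjamini-Hochberg adjustment over all 12314 genes. A call needed an adjusted p under 0.05 and at least 2-fold. Groups came from the sample titles. On simulated data with 100 genes changed 3-fold in each comparison, 99 to 100% were recovered with at most 3 false calls. The changed genes were drawn from those with more than about 100 expected counts. Recovery of changes near 2-fold was not simulated. Alternatives were DESeq2 1.42.0, limma 3.58.1 on log2(FPKM + 1) and log2(FPKM + 0.1), other scalings and filters, the top transcript, fits on the compared groups, a replicate block and leaving out each library. From the lists of related genes the text names, per comparison, some of the up to 4 called genes with the smallest adjusted p, and for each member the 3 genes of most similar pattern whose mean reached 5 FPKM. Values given for uncalled list genes and for genes past those 4 were chosen after being seen. The members and lists were chosen with earlier results of these data known. One gene of the pathway list is not reported here and was left out of its counts.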

Additional observations from a re-analysis of the deposited data

How the results depend on the processing

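Over 30 fold changes of the members and 16 alternatives besides dropping the fold minimum, 467 of 480 values kept direction and call, 3 lost a call, 7 gained one and 3 turned sign. Those that turned were not called: Serpine2 in HOMING against NC (-0.00523, and up to 0.13 without other libraries) and Plat in BM against NC (-0.0502, up to 0.236) without NC replicate 2, and Serpinb2 in TUMOR against NC (0.48, down to -0.890) without NC replicate 3. Scaling by library totals made 2 members called in BM against HOMING, Serpinb2 joining at -1.001, and no expression filter made 1 called in TUMOR against NC, Serpine2 at -1.04. That scaling shifted the median log2 change of all genes by up to 0.12, and its called genes in TUMOR against NC were 69.7% higher, against 59.4%. With no fold minimum, 4, 4, 2 and 5 members were called in BM against HOMING, HOMING against NC, TUMOR against NC and TUMOR against BM. Leaving out a library gave 1 to 1 members called in BM against HOMING, 1 to 2 in HOMING against NC, 2 to 3 in BM against NC, 0 to 1 in TUMOR against NC, 2 to 2 in TUMOR against BM and 2 to 3 in TUMOR against HOMING.

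Called genes over the whole table, in the order BM against HOMING, HOMING against NC, BM against NC, TUMOR against NC, TUMOR against BM and TUMOR against HOMING, numbered 1280, 1765, 1416, 2019, 1752 and 1329. With no expression filter they were 2581, 3302, 2537, 3420, 3162 and 2702, and with no fold minimum 7158, 8617, 8198, 9068, 8576 and 6776. Limma on log2(FPKM + 1), which understates changes of low genes, called 626 in BM against NC, 1301 in TUMOR against NC and 930 in TUMOR against BM. Without single libraries the counts ranged over 1276 to 1298, 1737 to 1833, 1373 to 1504, 1853 to 2153, 1611 to 1819 and 1209 to 1426.

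No pairing of the libraries by replicate number was seen: deviations of same-numbered libraries correlated at -0.12 to 0.22 in 18 pairs, with 1 above 0.1, and 3 of 12 libraries correlated best with their own number. With 3 libraries in each group, this check could miss a weak pairing. With the replicate number as a block, 1285, 1770, 1421, 2018, 1750 and 1325 genes and 1, 1, 3, 0, 2 and 3 members were called in the same order. Of the 1173 values of 69 changes of related genes, 1130 kept their call, 43 lost it and 0 turned sign. Plg and Vtn, with at most 3 counts a group, could not be compared.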

Other observations

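Serpins outside the system also differed between the groups. Of 16 other serpins on a list, 8 passed the filter. Serpina3g, an intracellular inhibitor of cathepsins, rose in BM over HOMING, from 9.49 ± 1.24 to 27.5 ± 0.930 FPKM (log2 1.55 ± 0.11, edgeR adjusted p = 1.31e-07), and fell to 1.77 ± 0.210 FPKM in TUMOR, so that its order, BM above NC and HOMING above TUMOR, is close to that of Serpine2. Serpinf1, which encodes the anti-angiogenic factor PEDF, had its highest level in TUMOR: 198.45, 121.17 and 127.67 FPKM against 91.30 to 106.47 in NC, 64.11 to 65.64 in BM and 30.14 to 31.13 in HOMING. It rose in TUMOR over HOMING by log2 2.28 ± 0.16 (edgeR adjusted p = 9.96e-08) and over BM by 1.16 ± 0.15, the latter ending at 0.89 without TUMOR replicate 1, which is also the highest TUMOR library for Krt8. Serpinh1, a collagen chaperone, averaged 384 FPKM in NC, 214 in BM, 179 in TUMOR and 147 in HOMING. It fell in TUMOR against NC by 1.23 ± 0.04 on the log2 scale, and by more in HOMING against NC. In BM against NC the change was log2 -0.92 ± 0.04, under 2-fold.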
